A study of Mus musculus with 12 samples.

Results

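The 10 genes described here encode enzymes that add or remove methyl groups at lysines 4, 9 and 36 of histone H3 (H3K4, H3K9 and H3K36). They were picked by name as rows of the deposited count table, 10 of 24062 genes, with earlier results of these data known. They were read in 12 libraries of mouse oocytes, 6 from females fed a high-fat diet (HFD) and 6 from females fed a control diet (CD). The females ate their diet for 9 weeks, were then mated with vasectomized males with CD feed in both groups during mating, and gave oocytes at day 0.5 post coitum, so that no oocyte had been fertilized. Each library is a pool of 4 oocytes, and the labels do not tie a pool to a female, so the spread between pools may be partly technical. Both feeds carry the same product code in the labels, the HFD as a modified form, so the groups are taken by their diet names. The sources used here give neither strain nor age.

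Methylation of H3K4 marks active promoters and enhancers, methylation of H3K9 marks silent chromatin and repeats, and methylation of H3K36 is laid down over transcribed gene bodies. In the growing oocyte these marks help to set where DNA methylation is placed, and the egg then carries the enzymes' messenger RNAs into the early embryo. Writers of the marks mostly share a catalytic SET domain, and most of the erasers share a JmjC domain.

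The libraries held 8409491 to 13793598 gene counts in HFD and 8556396 to 10477316 in CD. The 12 oocyte identity genes on the marker list summed to 11440 to 23880 CPM (counts scaled to a fixed library size, per megaread of the TMM-adjusted total) in HFD and 9474 to 17580 in CD. Single ones varied widely between pools, Gdf9 (an oocyte growth factor) from 542 to 9613 CPM, Bmp15 (its partner) from 240 to 1875, and Zp3 (a zona pellucida protein) from 10.9 to 3931. The 17 cumulus and granulosa markers summed to 19.1 to 43.8 CPM in HFD and 29.6 to 83.6 in CD, with Ptx3, Pgr, Areg, Amh and Amhr2 at 0 in all libraries. Cyp19a1, the only one of the 17 tested, was present in every library, at 14.9 to 42.7 CPM in HFD and 25.6 to 52.1 in CD. Cyp11a1 reached 6.30 CPM in HFD and 49.3 in CD. The 6 oviduct markers summed to at most 28.4 CPM. The 7 blood markers summed to 2.48 to 9.36 CPM in HFD and 2.18 to 7.38 in CD, with the 4 globin genes at 0 and the macrophage gene Cd68 present in every library. Their part in the results was not tested. Every count was even in HFD replicates 1, 2, 4 and 6 and in no CD library. Relative to each gene's mean over the 12 libraries, HFD replicate 3 had the most negative trend of expression on transcript length. CD replicate 3 had the most positive, so several results are also given without them.

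For both sister H3K9 methyltransferases, whose transcripts stood far apart in level, the 250 bases before the RefSeq transcription start (GRCm38.p6) are shown first, with those of Setd2, whose level rose and fell across the pools with Ehmt1, and of Kdm5b, the only one of the 7 tested enzymes with a correlation below 0 to each of the other 6, none past adjustment. Capitals mark the GC box GGGCGG on either strand, the only one of the searched motifs found in the windows printed. Overlapping GC boxes were counted separately, and CCAAT and TATAAA were also searched on both strands.

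Ehmt1: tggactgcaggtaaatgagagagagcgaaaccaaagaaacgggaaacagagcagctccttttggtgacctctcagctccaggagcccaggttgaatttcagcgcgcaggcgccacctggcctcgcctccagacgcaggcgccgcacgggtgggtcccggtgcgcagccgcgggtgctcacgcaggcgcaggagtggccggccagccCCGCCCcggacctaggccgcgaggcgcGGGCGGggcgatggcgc
Ehmt2, first start: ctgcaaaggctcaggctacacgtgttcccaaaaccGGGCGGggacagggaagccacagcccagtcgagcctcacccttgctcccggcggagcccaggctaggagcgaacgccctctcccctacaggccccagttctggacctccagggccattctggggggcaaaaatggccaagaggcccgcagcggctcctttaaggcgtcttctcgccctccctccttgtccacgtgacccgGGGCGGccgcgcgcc
Ehmt2, second start: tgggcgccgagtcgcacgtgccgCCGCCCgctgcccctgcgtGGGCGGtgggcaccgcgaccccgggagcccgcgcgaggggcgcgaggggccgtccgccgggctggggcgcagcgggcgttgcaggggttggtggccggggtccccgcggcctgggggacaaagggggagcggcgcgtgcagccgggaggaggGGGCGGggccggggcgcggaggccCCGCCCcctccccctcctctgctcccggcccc
Setd2: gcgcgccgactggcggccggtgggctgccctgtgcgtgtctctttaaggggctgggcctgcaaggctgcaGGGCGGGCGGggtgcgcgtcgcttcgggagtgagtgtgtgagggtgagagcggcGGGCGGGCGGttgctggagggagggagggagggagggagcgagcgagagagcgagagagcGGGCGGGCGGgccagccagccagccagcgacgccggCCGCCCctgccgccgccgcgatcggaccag
Kdm5b: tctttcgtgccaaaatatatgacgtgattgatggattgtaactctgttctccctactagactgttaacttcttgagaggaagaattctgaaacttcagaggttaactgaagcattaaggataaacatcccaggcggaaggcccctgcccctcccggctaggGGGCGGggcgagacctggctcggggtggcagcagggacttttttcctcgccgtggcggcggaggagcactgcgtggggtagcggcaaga

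The Ehmt1 window lies at chr2:24919610-24919859 on the minus strand and holds 26 CG pairs, and the Ehmt2 window at chr17:34898224-34898473 on the plus strand holds 18, while the window of the second Ehmt2 start, chr17:34898720-34898969, holds 36. The Setd2 window lies at chr9:110532347-110532596 on the plus strand with 31 CG pairs, and the Kdm5b window at chr1:134559928-134560177 on the plus strand with 13. The median over all 32851 promoter windows of this length was 6. GC boxes numbered 2 in Ehmt1, 2 and 4 in the Ehmt2 windows, 7 in Setd2 and 1 in Kdm5b, and 32.7% of all windows held at least 1. CCAAT occurs in 33.8% of all windows and TATAAA in 12.4%. RefSeq's table matched 9 of the 10 genes, all but Kmt2b, and gave Ehmt2 and Kdm4c a second start. The counts per gene do not tell which start was used.

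Of the 10 enzymes, 7 were clearly present in every pool and 3 were close to absent. The 3 were Kmt2a, an H3K4 methyltransferase of the MLL family, Ehmt2 (G9a), which dimethylates H3K9, and Kdm4c, a demethylase of H3K9 and H3K36. Kmt2a had 8 reads over the 6 HFD libraries and 16 over the 6 CD libraries, and its highest library, CD replicate 1, stood at 0.811 CPM. Ehmt2 had 10 and 8 reads, with a highest value of 0.497 CPM in CD replicate 4. Kdm4c had 12 and 7 reads, with a highest value of 0.551 CPM in HFD replicate 2. A count of 0 allows up to 3 counts, or 0.242 to 0.373 CPM depending on the library, which covers counting error only. In the 4 HFD libraries with even counts only, counts come in steps of 2, and 6 counts there stand at 0.485 to 0.707 CPM. Those libraries gave all 8 HFD reads of Kmt2a, 8 of the 10 of Ehmt2 and 8 of the 12 of Kdm4c. Reads came from 2 HFD and 2 CD libraries for Kmt2a, 4 and 3 for Ehmt2, and 4 and 2 for Kdm4c. These 3 genes did not pass the filter on low counts, so the main test did not compare the diets for them. Fitted without the filter, Kmt2a had a log2 fold change (HFD minus CD) of −0.87 ± 1.57 (SE; edgeR, adjusted p = 0.794). Ehmt2 had 0.06 ± 1.36 (edgeR, adjusted p = 0.989) and Kdm4c 0.64 ± 1.45 (edgeR, adjusted p = 0.841), and at so few reads these values say little.

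A close relative of each of these 3 was well represented. Ehmt1 (GLP), the partner with which G9a forms a dimer, had 1300 HFD and 1730 CD reads, against the 10 and 8 of Ehmt2. Kdm4a had 484 and 567 reads, against 12 and 7 of Kdm4c. Kmt2b had 1683 and 2060 reads, against 8 and 16 of Kmt2a. Words of 50 bases shared with transcripts of other genes made up 0% of the annotated transcripts of Ehmt2, Kdm4c, Ehmt1, Kdm4a and Kmt2b, and 2.02% of that of Kmt2a, all in an antisense gene that is not in the count table. For Kmt2d the share was 1.71%. The plot of CPM by gene and diet shows the gap between the 7 and the 3.

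**Figure D1:**
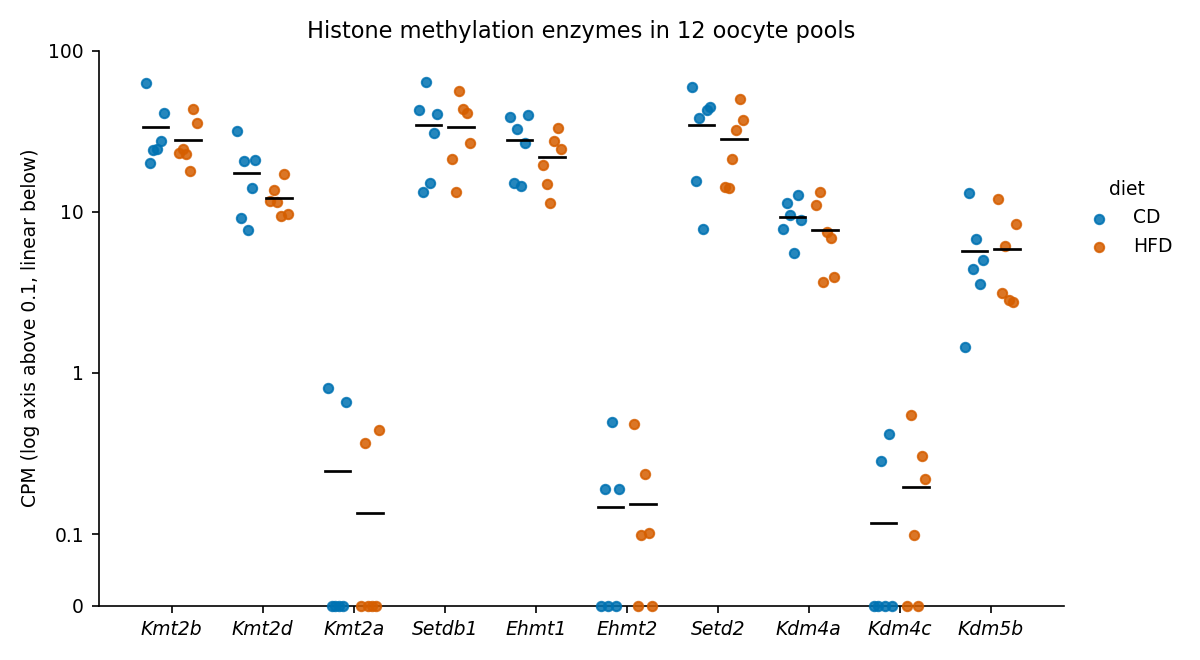
CPM of the 10 enzymes in each of the 12 libraries, on an axis that is logarithmic above 0.1 and linear below. Each point is 1 pool of 4 oocytes in replicate order, blue for CD and orange for HFD, and bars are means of 6. Kmt2a, Ehmt2 and Kdm4c reach at most 0.811 CPM, and the diets overlap for the other 7.

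Per kilobase of transcript, Setdb1 was the most abundant of the 7, at a mean of 7.32 CPM per kb over the 12 libraries, higher than 57.1% of tested genes. Ehmt1 (4.18), Setd2 (3.77) and Kmt2b (3.62 CPM per kb) formed a middle group. Kdm4a followed at 1.83, then Kmt2d at 0.746 and Kdm5b at 0.666 CPM per kb, the last higher than 11% of tested genes. Setdb1 lay above Ehmt1 in 12 of 12 libraries, Kmt2b above Kdm4a in 11, and Kdm4a above Kmt2d in 12. The order within the middle group was not steady, with Ehmt1 above Setd2 in 7 of 12 libraries and Setd2 above Kmt2b in 6. Kmt2d and Kdm5b were likewise in this order in 7 of 12. Lengths are those of the longest protein-coding transcript in GENCODE M21, and with merged exons in their place Kdm5b stood at 0.350 and Kmt2d at 0.742 CPM per kb. Whether transcripts of unlike length were captured equally well was not tested, so the order is one of read counts per length.

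The diets were compared to ask whether the high-fat diet changed what the egg carries of these messages, and for none of the 7 did the test find a change. By edgeR's quasi-likelihood test with Benjamini-Hochberg adjustment over 9935 genes, 0 of the 7 passed an adjusted p of 0.05, as did 0% of all tested genes. At an unadjusted p under 0.05, 0 of the 7 were lower in HFD, against 8.89% of tested genes, and 0 were higher, against 13.4%. DESeq2 called 0 of the 7 as well, against 2.46% of its genes lower and 4.96% higher. The 6 HFD and 6 CD values overlapped for all 7, while 2.45% of tested genes had diets that did not overlap. Log2 fold changes (HFD minus CD) were below 0 for 6 of the 7, against 48.2% of tested genes, with a median of −0.27 against 0.04. As shares of the RNA in a pool, these values cannot tell fewer cells contributing a message from less of it per cell.

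Among the H3K4 methyltransferases, Kmt2b, the family member that the growing oocyte is known to need for its H3K4 trimethylation, ranged from 17.9 to 43.5 CPM in HFD with a median of 23.8. In CD it ranged from 20.2 to 62.9 with a median of 26.1. CD replicate 1 held the highest value, and 4 of 6 HFD pools lay below the CD mean. The log2 fold change was −0.26 ± 0.35 (SE; 95% interval −1.003 to 0.48; edgeR, adjusted p = 0.693), and it was −0.004 without CD replicate 1 and −0.46 without HFD replicate 5. Its gene spans chromosome 7, 30568858 to 30588726 on the minus strand (mm10).

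Kmt2d, which methylates H3K4 at enhancers, ranged from 9.43 to 17.2 CPM in HFD (median 11.6) and from 7.70 to 31.5 in CD (median 17.5). It was the only one of the 7 for which every HFD pool lay below the CD mean, although CD replicates 2 and 4 lay below every HFD pool. Its log2 fold change of −0.52 ± 0.37 was the most negative of the 7, with an interval of −1.31 to 0.28 (edgeR, adjusted p = 0.438). Without CD replicate 1 it was −0.28, and with each library's length trend removed −0.27. The CD pools varied more, with a coefficient of variation of 51.2% against 23.8% in HFD, a difference that was not tested. The gene lies on chromosome 15, 98831669 to 98871204, and its transcript of 19823 nt is the longest of the 10.

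Of the H3K9 methyltransferases, Setdb1, which is recruited to repeats with its partner Trim28, ranged from 13.2 to 56.3 CPM in HFD (median 34.0) and from 13.3 to 64.4 in CD (median 35.7). High and low pools occurred in both diets, with replicates numbered 3 the highest in each and replicates numbered 2 the lowest. The log2 fold change was −0.035 ± 0.44 with an interval of −0.97 to 0.90 (edgeR, adjusted p = 0.972), and its sign changed in 9 of 22 processing alternatives. Of its exons (chromosome 3, 95323525 to 95357202), 4.7% overlap other genes, among them Cers2 on the other strand, whose reads there cannot be told apart without strand. The transcript shares 9.37% of its 50-base words with other genes' transcripts.

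Ehmt1 ranged from 11.4 to 33.2 CPM in HFD (median 22.1) and from 14.4 to 39.7 in CD (median 29.8). Only HFD replicate 5 lay above the CD mean, and HFD replicate 3 lay below all CD pools. The log2 fold change was −0.36 ± 0.37 with an interval of −1.14 to 0.42 (edgeR, adjusted p = 0.598). It was −0.24 without HFD replicate 3 and −0.12 with the length trend removed. The gene lies on chromosome 2, 24789928 to 24919614.

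Setd2, the enzyme that trimethylates H3K36 and does so over gene bodies in oocytes, ranged from 14.1 to 50.4 CPM in HFD (median 26.7) and from 7.83 to 59.2 in CD (median 40.6). Both extremes were CD pools, replicate 4 the lowest and replicate 1 the highest. Its log2 fold change was −0.30 ± 0.47 with an interval of −1.31 to 0.70 (edgeR, adjusted p = 0.744), and it was −0.10 without CD replicate 1 and −0.57 without HFD replicate 5. The gene lies on chromosome 9, 110532597 to 110618633.

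Of the erasers, Kdm4a, a demethylase of H3K9 and H3K36 trimethylation, ranged from 3.68 to 13.2 CPM in HFD (median 7.19) and from 5.59 to 12.6 in CD (median 9.26). HFD replicates 3 and 6 lay below every CD pool and HFD replicate 2 above them all. The log2 fold change was −0.27 ± 0.39 with an interval of −1.11 to 0.56 (edgeR, adjusted p = 0.716). It was −0.14 without HFD replicate 3, −0.15 without HFD replicate 6, −0.50 without HFD replicate 2 and −0.87 in the 8 libraries with odd counts, of which 2 are HFD. The gene lies on chromosome 4, 118136957 to 118180043.

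Kdm5b, which removes H3K4 methylation, ranged from 2.75 to 11.96 CPM in HFD (median 4.64) and from 1.44 to 13.1 in CD (median 4.73). It was highest in CD replicate 2 and HFD replicate 1, and lowest in CD replicate 1. The log2 fold change was 0.03 ± 0.54 with an interval of −1.12 to 1.19 (edgeR, adjusted p = 0.976), and its sign changed in 10 of 22 alternatives. The gene lies on chromosome 1, 134560171 to 134635285. All 7 intervals include 0, and their widths leave room for changes of over 1.5-fold in at least 1 direction, as the plot of fold changes with intervals shows.

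**Figure D2:**
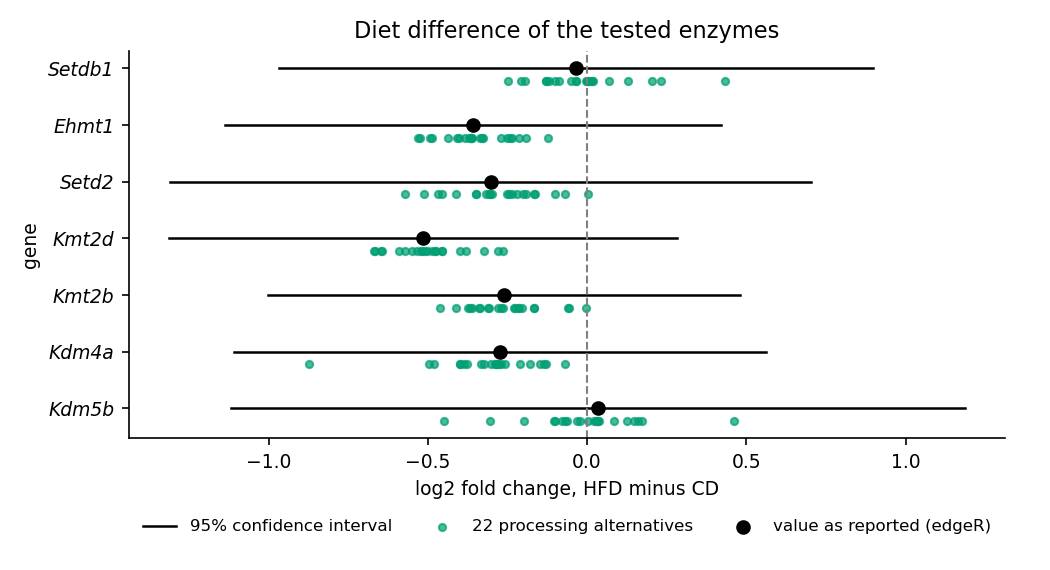
Log2 fold change (HFD minus CD) of the 7 tested enzymes, with the edgeR value as a black point, its 95% confidence interval as a line and the 22 processing alternatives as green points below. Every interval crosses 0. Setdb1 and Kdm5b have alternatives on both sides of 0, as has Setd2 through 1 alternative at 0.004.

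These transcripts are long, with a median of 8350 nt over the 7 against 3112 nt over tested genes, and length moved with diet in these libraries. For each library, the log2 level minus the gene's mean over the 12 libraries was fitted on log2 transcript length. The slope was −0.169 ± 0.165 (SD, n = 6) in HFD and 0.169 ± 0.211 in CD. Being relative to that mean, the slopes compare libraries only, and the means of the 2 diets mirror each other by construction. Among the 2493 tested genes at least as long as the shortest of the 7 transcripts, 64.6% had a fold change below 0 and the median was −0.24, beside −0.27 for the 7 enzymes. With each library's length trend removed the median of the 7 was −0.07, and 5 of 7 were below 0. What length contributed to each enzyme's value was not tested beyond this. The plot of fold change against length shows 6 of the 7 close to the median of genes of like length, with Kmt2d beyond the last class.

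**Figure D3:**
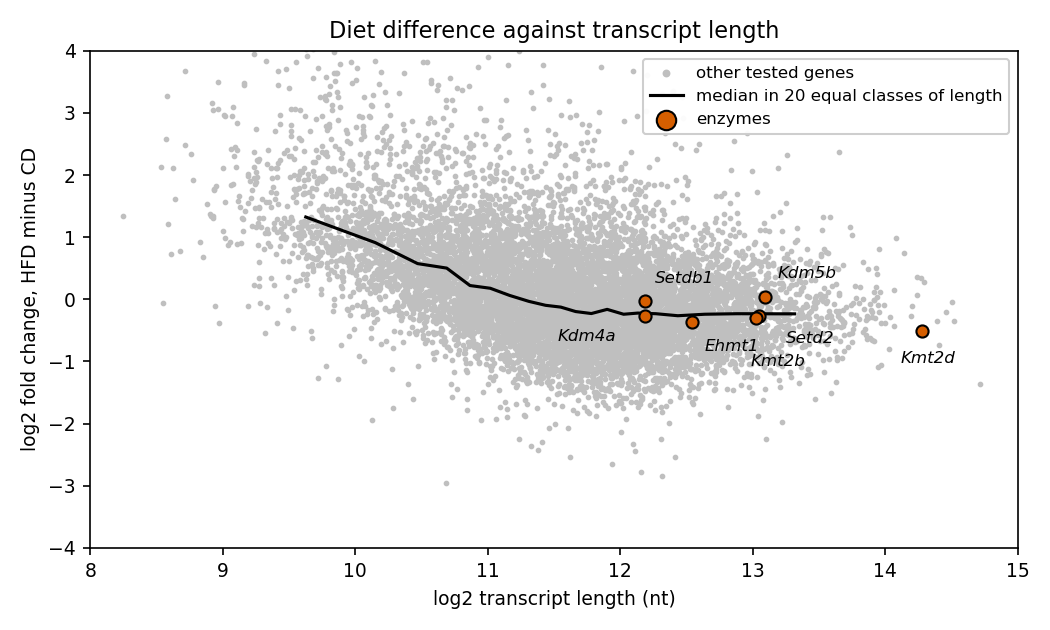
Log2 fold change (HFD minus CD) against log2 transcript length in nt for 9856 tested genes with a length, the 7 enzymes in orange and the median in 20 equal classes of length as a line. 56 genes lie beyond the plotted range. The enzymes sit near the line, which ends short of Kmt2d, from −0.52 for Kmt2d to 0.03 for Kdm5b.

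The enzymes differed more between pools of the same diet than between the diets. Averaged over the diets, the SD between pools on the log2 scale ran from 0.54 for Kmt2b to 0.95 for Setd2, with a median of 0.61 over the 7 against 0.77 over tested genes. Some pools were high or low for several writers at once. CD replicate 1 was the highest CD pool for Kmt2b, Kmt2d and Setd2 and the lowest for Kdm5b, at 1.44 CPM. CD replicates 2 and 4 were the lowest 2 CD pools for Ehmt1, Setd2, Setdb1 and Kmt2d, and the highest 2 for Kdm5b, at 13.1 and 6.83 CPM. Among HFD pools, replicate 5 was the highest for Kmt2b, Kmt2d, Ehmt1 and Setd2 and the lowest for Kdm5b, at 2.75 CPM.

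**Figure D4:**
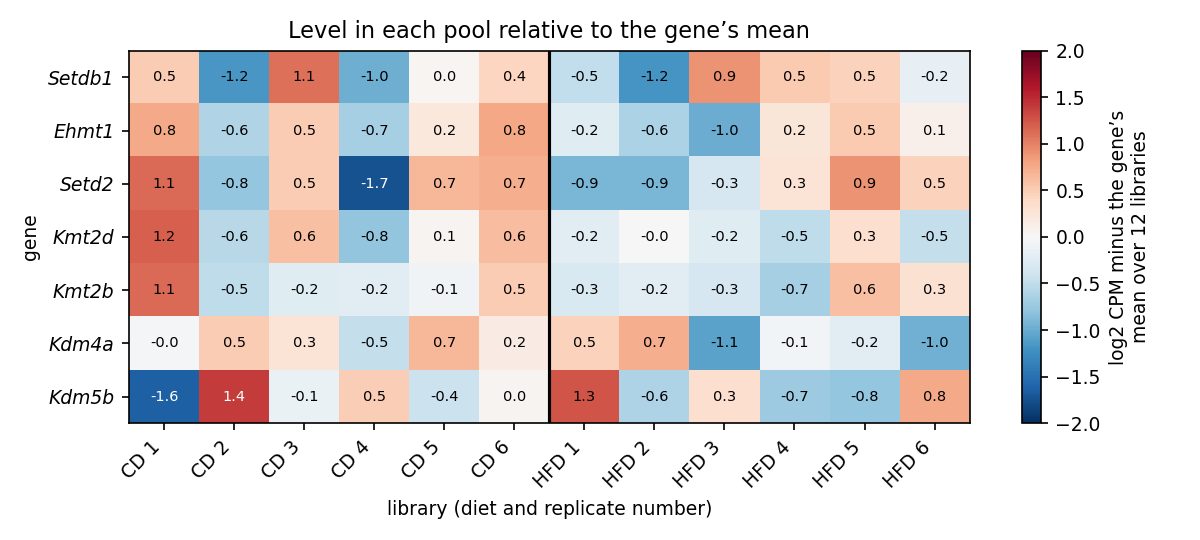
Log2 CPM (prior count 2) of the 7 tested enzymes in each library, minus the gene's mean over the 12 libraries, CD on the left and HFD on the right. CD replicate 1 is high for Setd2 (1.14), Kmt2d (1.2) and Kmt2b (1.13) and low for Kdm5b (−1.64), and CD replicate 4 is lowest for Setd2 (−1.74).

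Over the 21 pairs of the 7 enzymes, 5 had a correlation of log2 CPM across the 12 libraries that passed Benjamini-Hochberg adjustment over the 21, all of them positive and all between writers. The closest pair was Ehmt1 and Setd2, with r = 0.85 (permutation p = 0.00071, adjusted 0.0149) and rho = 0.87 (permutation p = 0.00057, adjusted 0.0120). It was 0.76 within HFD and 0.93 within CD, 0.93 without the 2 libraries farthest from the median of Ehmt1, and 0.76 with the length trend removed. Kmt2b and Kmt2d had r = 0.74 (permutation p = 0.00601, adjusted 0.0409) and rho = 0.64 (permutation p = 0.0299, adjusted 0.126). Their r was 0.58 within HFD and 0.80 within CD. Without the 2 libraries farthest from the median of Kmt2b it fell to 0.46, so this relation rests in part on those libraries. With length removed it was 0.47. Kmt2d and Ehmt1 had r = 0.72 (permutation p = 0.00804, adjusted 0.0409; rho = 0.75, permutation p = 0.00715, adjusted 0.05), which was 0.96 within CD and 0.11 within HFD. Kmt2d and Setd2 had r = 0.71 (permutation p = 0.00974, adjusted 0.0409; rho = 0.77, permutation p = 0.00478, adjusted 0.05), with 0.92 within CD and 0.11 within HFD. Neither of these held within HFD, with length removed they were 0.40 and 0.41, and without the 2 farthest libraries 0.72 and 0.60. Setd2 and Setdb1 had r = 0.73 (permutation p = 0.00806, adjusted 0.0409; rho = 0.59, permutation p = 0.0486, adjusted 0.129), 0.59 within HFD, 0.83 within CD, 0.65 with length removed and 0.57 without the 2 farthest libraries. All 10 pairs of the 5 tested writers had r above 0 over the 12 libraries, from 0.29 to 0.85, but within HFD they ran from −0.11 to 0.76. All pairs share the 12 libraries, and the median r was 0.25 over the 21 pairs against −0.002 over all pairs of tested genes.

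Kdm5b ran against the writers without passing that adjustment. Its r was below 0 in all 6 of its pairs. The lowest was with Kmt2d, at −0.65 (permutation p = 0.0230, adjusted 0.0653; rho = −0.59, permutation p = 0.0487, adjusted 0.129), −0.40 within HFD and −0.82 within CD. Without the 2 libraries farthest from the Kdm5b median it was −0.35, so it rests on those libraries, and with length removed it was −0.70. Kdm4a followed none of the other 6, with r from −0.33 to 0.25. Both patterns are in the plots of Setd2 against Ehmt1 and of Kdm5b against Kmt2d. Each enzyme's correlation with the libraries' length slope ran from −0.42 for Kdm5b to 0.71 for Ehmt1, given as a description.

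**Figure D5:**
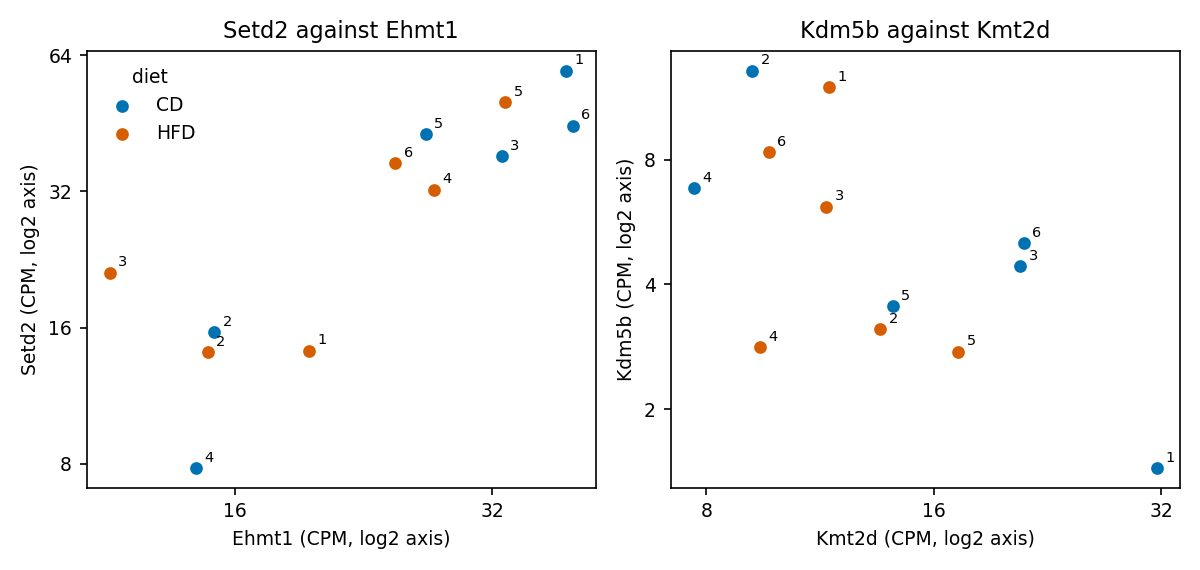
CPM on log2 axes in the 12 libraries, Setd2 against Ehmt1 on the left and Kdm5b against Kmt2d on the right, CD in blue and HFD in orange with replicate numbers beside the points. Setd2 rises with Ehmt1 in both diets (r = 0.85), and Kdm5b is lowest, at 1.44 CPM, in CD replicate 1, where Kmt2d is highest, at 31.5 CPM.

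The tested genes whose log2 CPM followed each enzyme most closely over the 12 libraries are given as descriptions, since the highest of all correlations was chosen. They were 2300002M23Rik for Setd2 (r = 0.98, rho = 0.93), Btbd1 for Setdb1 (0.98, 0.95) and C030046E11Rik for Ehmt1 (0.96, 0.92). For Kmt2d it was Xpr1, a phosphate exporter (0.95, 0.95), for Kmt2b Zfp318 (0.94, 0.78), for Kdm5b Zfp869 (0.92, 0.83) and for Kdm4a Thrap3 (0.91, 0.87). A correlation above 0.5 was common, with 21% of tested genes for Setd2 and 21.2% for Ehmt1, against 5.7% for Kdm4a.

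Other genes of the 3 marks, 70 in all, were read from a list of writers, complex subunits, readers and erasers, of which 57 were tested. None passed edgeR's adjusted threshold in either direction. In this list 41 had fold changes below 0 and 16 above, with a median of −0.29 against 0.04 over tested genes, and −0.10 with the length trend removed, when 31 of 57 were below 0. Without CD replicate 1 the list's median was −0.16. At an unadjusted p under 0.05, 5 were lower in HFD and 6 higher, beside the 8.89% and 13.4% of all tested genes given above. DESeq2 gave 55 of the list an adjusted p and called 1 lower, Kdm7a, against 2.46% of all its genes. It called 1 higher, Men1 (menin, a subunit of MLL complexes, named after its value was seen), against 4.96%. Men1 did not pass the filter of edgeR's test, and ranged from 0.471 to 11.8 CPM in HFD and from 0.0901 to 1.12 in CD.

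By role, fold changes were below 0 in 6 of 6 tested genes of the H3K4 eraser group, 5 of 6 H3K9 erasers and 3 of 3 H3K36 erasers. Over the whole list this held for 41 of 57, and over all tested genes for 48.2%, and none of the erasers passed the threshold. The H3K4 eraser group includes the CoREST corepressors Rcor1 and Rcor3, which are no demethylases, and leaves out Kdm5b, which stood at 0.03. With the length trend removed, the counts of these eraser groups were 5 of 6, 5 of 6 and 2 of 3. The other roles, besides the complex subunits given below, were more mixed. Below 0 were 3 of 5 H3K4 writers, 3 of 5 H3K9 writers and 5 of 10 H3K9 partners and readers. H3K36 writers had 4 of 6, and H3K36 readers and SETD2 partners 3 of 5. In the same order, the counts with the length trend removed were 3, 2, 3, 4 and 1. Kdm7a, a demethylase of H3K9 and H3K27, ranged from 61.3 to 197 CPM in HFD and from 173 to 561 in CD. Of the 6 HFD pools, 5 lay below every CD pool, and the log2 fold change was −1.07 ± 0.33 (edgeR, adjusted p = 0.105; DESeq2, adjusted p = 0.0443). Without both replicates numbered 3 it was −0.63. Kdm1b, the H3K4 demethylase of the growing oocyte, ranged from 65.0 to 217 and from 107 to 565 CPM, with 5 of 6 HFD pools below every CD pool and −1.05 ± 0.44 (edgeR, adjusted p = 0.185), or −0.49 without CD replicate 3. Kdm2a, an H3K36 demethylase, had −0.53 ± 0.46 (edgeR, adjusted p = 0.526), or −0.16 without CD replicate 1.

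The H3K4 writers had a median of −0.29 over 5 tested genes, of which Setd1a had the smallest p, with −0.54 ± 0.40 (edgeR, adjusted p = 0.444) and −0.20 without CD replicate 1. The subunits of their complexes were below 0 in 9 of 11. Pagr1a, a subunit of the Kmt2c and Kmt2d complexes, was also higher in HFD, at 2.36 to 33.9 CPM in HFD and 0.848 to 3.26 in CD. The Pagr1a difference on the log2 scale, 2.06 ± 0.66 (edgeR, adjusted p = 0.109), was 0.87 without HFD replicate 3. With the length trend removed it was 1.37 (edgeR, adjusted p = 0.255). It passed in the 8 libraries with odd counts (3.09, edgeR, adjusted p = 0.0245), whose only HFD pools are replicates 3 and 5.

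Among H3K9 writers, Suv39h1, which trimethylates H3K9 in heterochromatin, had 1.44 ± 0.65 (edgeR, adjusted p = 0.213). That value rested on HFD replicate 3, without which it was 0.15. Mphosph8, a reader of H3K9 methylation, ranged from 527 to 1660 CPM in HFD and from 358 to 1004 in CD, with 5 of 6 HFD pools above every CD pool. Its log2 fold change came to 0.85 ± 0.31 (edgeR, adjusted p = 0.140). Among H3K36 genes, Setmar, a SET-domain protein fused to a transposase in primates, had 1.48 ± 0.53 (edgeR, adjusted p = 0.134), or 0.88 without HFD replicate 3. Msh6, a mismatch repair protein that binds H3K36 trimethylation, had −0.99 ± 0.39 (edgeR, adjusted p = 0.159), or −0.62 without both replicates numbered 3.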

How the data were processed

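The table the authors deposited holds raw whole-number counts of reads for each gene symbol in 12 libraries. Per the labels' protocols, cDNA was made with SMART-Seq v4 and tagmented with Nextera XT, which does not mark strand. Per the submitters' processing notes, STAR, HTSeq 1.0.0, DESeq2 1.0.19 and mm10 were used, with neither annotation nor counting options stated. The 5 tallies of unassigned reads, 62.3% to 72.9% of all, were left out. Reads carry no molecular identifiers.

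From these counts, edgeR 4.0.16 (R 4.3.3) with TMM, its default filter and a robust quasi-likelihood F-test compared the diets, with group as the only term and Benjamini-Hochberg adjustment. CPM are TMM-scaled, log2 CPM used a prior count of 2, and each SE is the fold change over the root of its F. The edgeR script was tested on simulated data. Correlations had two-sided permutation tests with 100000 resamples. Lengths and coordinates came from GENCODE M21, which matched 23685 of 24062 symbols. Whsc1, Whsc1l1 and 2410016O06Rik in the table were read as Nsd2, Nsd3 and Riox1. Alternatives used DESeq2 1.42.0 and limma 3.58.1 among others. The genes and lists were chosen with earlier results of these data known. Named from the list of 70 were genes past the threshold or, in a role without one, the gene with the smallest p, and for each enzyme the gene with the highest correlation, besides Zp3, Gdf9 and Bmp15. Men1 and Dpy30 were added after their values were seen.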

Additional observations from a re-analysis of the deposited data

How the results depend on the processing

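In 22 alternatives to the processing, 0 of the 7 tested enzymes passed the threshold, and their median log2 fold change lay between −0.46 and −0.07 (length trend removed), against −0.27 as reported. Kmt2b, Kmt2d, Ehmt1 and Kdm4a stayed below 0 in all 22. Over all genes, edgeR's count of 0 became 709 with DESeq2, 35 with limma-voom and quality weights, and 456 in the libraries with odd counts only, and was 0 with each library left out. The cause was not tested.

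Setdb1 turned positive in the libraries with odd counts (0.43), with the length trend removed (0.23), with the replicate block (0.009) and without both replicates numbered 3 (0.019), and leaving out each library gave −0.25 to 0.20. Kdm5b turned negative with library totals alone (−0.08), without a filter on low counts (−0.022), in the libraries with odd counts (−0.45) and without both replicates numbered 3 (−0.064), and leaving out each library gave −0.31 to 0.46. Setd2 was 0.004 in the libraries with odd counts. The cause was not tested.

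Replicate numbers are shared by the diets and are not said to pair samples. Same-numbered libraries deviated together with correlations from −0.45 (number 4) to 0.55 (number 2). The medians with other numbers ran from −0.26 to 0.34, and these values do not settle whether the numbers pair samples. The replicate block moved no count of calls (0 genes, 0 enzymes; median −0.21). For the 3 enzymes near 0, which reached at most 0.811 CPM, 3 counts are worth 0.242 to 0.373 CPM. In the 4 HFD libraries with even counts only, 6 counts are worth 0.485 to 0.707 CPM. Differences of these sizes were not detectable at this depth.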
